A study of Homo sapiens with 4 samples.

Results

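The 9 genes described here encode proteins that remove R-loops or limit them: RNASEH1, RNASEH2A, DDX5, DDX21, DHX9, TOP1, AQR, BRCA1 and BRCA2. They were chosen by name for that role. Their values are all rows of a Micro-C contact table in which at least 1 of the 2 bins lay over the gene body on hg38. All 9 genes were found, of 18703 protein-coding genes with a listed row, and they took 21 bins and 55 of 89239 listed bin pairs. No pair belonged to more than 1 of the genes. Micro-C maps chromatin contacts by cutting chromatin with micrococcal nuclease and ligating fragments that lie close together. The knockdown group was 2 libraries of SH-SY5Y, a human cell line established from a neuroblastoma, that carried a lentiviral shRNA against TDP-43 and were selected with puromycin. The control group was 2 libraries of SH-SY5Y cells labelled control, and the treatment protocol names a control construct, shNC, without saying which libraries carry it. The labels do not say whether a line was a single clone or whether each library had a culture of its own. The p-values therefore hold for the spread among these 4 libraries, which may be technical.

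An R-loop is a stretch of RNA paired with its DNA template, with the other DNA strand displaced, and it forms mostly behind a transcribing polymerase. Cells remove R-loops by digesting the RNA strand with an RNase H, by unwinding the hybrid with a helicase, or by relaxing the negative supercoils that favour it with a topoisomerase. Splicing and homologous recombination factors limit R-loops or protect the DNA where they persist, and TDP-43 is an RNA- and DNA-binding protein of nuclear RNA processing. A contact count measures how often DNA segments of a region were ligated to each other, not how much RNA or protein a gene gave.

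The listed pairs held 115168160 and 142424414 contacts in the knockdown libraries, against 158400914 and 163147992 in the control libraries. Levels are CPM, contact counts scaled to a common library size by TMM, and fold changes are log2 values of knockdown over control from edgeR, with p-values adjusted over all listed pairs and a threshold of 0.05. Within-bin contacts were ranked by level into 10 groups of like size, and their median log2 fold change was -0.29 in the group of highest level and 0.13 in that of lowest level. Pairs that passed are therefore also given after the dependence of the fold change on contact level was taken out by a loess fit (the trend removed). Contacts within the bin of TARDBP, the targeted gene, were 32.8 and 32.9 CPM in the knockdown libraries, against 39.2 and 37.2 CPM in the control libraries, and a contact map gives no check of an RNA knockdown.

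With TMM scaling, within-bin contacts at both RNase H genes passed as lower in the knockdown. Their bins belonged to the group of highest contact level, where 84.8% of bins passed as lower. On the same scaling, pairs of the bin that the 3′ end of DDX5 reaches into, shared with POLG2 and MILR1, passed as higher. No pair passed at the other 6 genes. Of the 55 pairs, 7 passed, 4 lower and 3 higher. The lower ones were 3 pairs of RNASEH1 and 1 of RNASEH2A, and the higher ones were all of DDX5. In the control, 1 of these DDX5 pairs ranked near the bottom of the listed pairs at its distance, and it may be listed only through its knockdown counts. Fewer of the 55 passed without knockdown library 1 or 2, and no share over all pairs is given for those fits. The 7 pairs of the fit on all libraries were 12.7% of the 55, against 16.2% of all listed pairs (10.5% lower and 5.76% higher). By gene, 3 of 9 had a differing pair, against 57.4% of all genes. The median log2 fold change was 0.03 over the 55 pairs and 0.02 over all pairs. Knockdown and control libraries were fully separated in 32 of the 55 pairs (20 higher and 12 lower), which is 58.2%, and in 56.1% of all pairs. After removal of the trend 4 of the 55 passed, against 11.0% of all pairs (5.97% lower and 4.98% higher): 1 lower pair at RNASEH1, 2 higher pairs at DDX5 and 1 higher pair at BRCA1. By gene that was 3 of 9, against 37.7% of all genes.

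**Figure D1:**
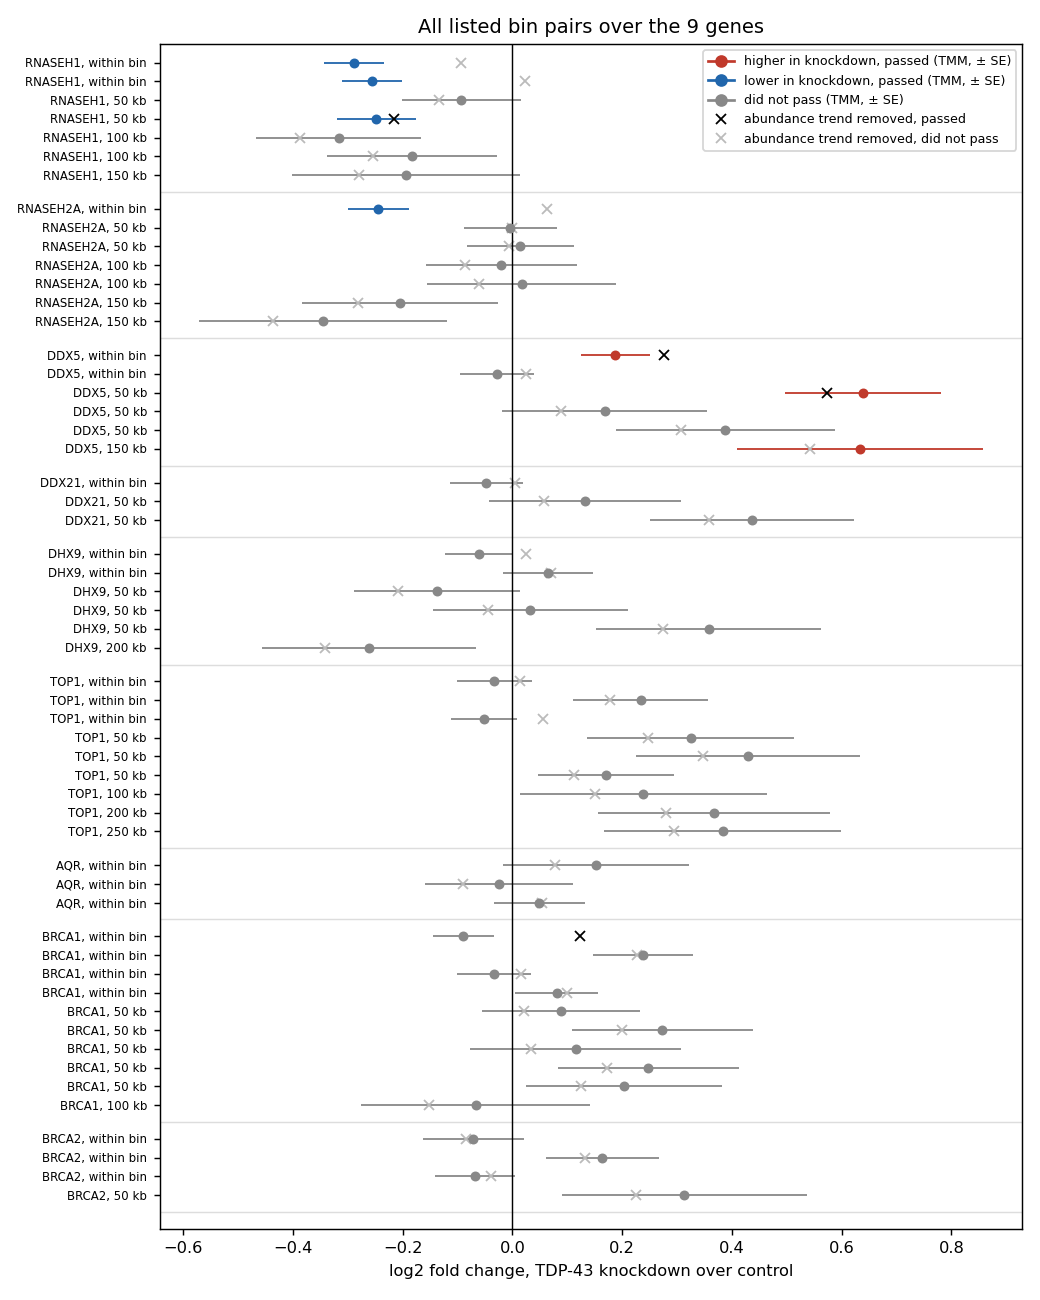
Log2 fold change (knockdown over control) of each of the 55 bin pairs, grouped by gene and labelled by the distance between its bins. Circles with bars are TMM values ± SE (red higher and blue lower where passed, grey not passed) and crosses are values with the abundance trend removed. The RNASEH1 pairs all lie left of 0, and the DDX5 pairs that passed lie between 0.19 and 0.64.

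The starts of the 3 genes with a differing pair are shown first, because the start of each RNase H gene lay in a bin that passed while the start of DDX5 lay in one that did not. Each line gives the 250 bases before an annotated transcript start (RefSeq, GRCh38.p14), read 5′ to 3′ on the strand of the gene, with every CG dinucleotide in capitals. The table holds 1 such window for each RNase H gene and 3 for DDX5. The DDX5 window shown is the most upstream of the 3 and belongs to a start inside the annotated gene body, so most of it overlaps that body. They lie at chr2:3558334-3558583 on the minus strand, chr19:12806334-12806583 on the plus strand and chr17:64506639-64506888 on the minus strand.
RNASEH1: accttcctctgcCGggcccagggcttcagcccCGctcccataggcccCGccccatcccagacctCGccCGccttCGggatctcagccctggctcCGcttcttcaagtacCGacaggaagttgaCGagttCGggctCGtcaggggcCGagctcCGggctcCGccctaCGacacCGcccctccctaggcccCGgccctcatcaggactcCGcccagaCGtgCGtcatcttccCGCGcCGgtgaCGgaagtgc
RNASEH2A: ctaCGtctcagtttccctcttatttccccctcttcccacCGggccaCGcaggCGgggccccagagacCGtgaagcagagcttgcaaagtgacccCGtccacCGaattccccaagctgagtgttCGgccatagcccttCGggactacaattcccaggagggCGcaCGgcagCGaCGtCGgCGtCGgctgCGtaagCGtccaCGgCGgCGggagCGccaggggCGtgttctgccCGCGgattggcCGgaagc
DDX5: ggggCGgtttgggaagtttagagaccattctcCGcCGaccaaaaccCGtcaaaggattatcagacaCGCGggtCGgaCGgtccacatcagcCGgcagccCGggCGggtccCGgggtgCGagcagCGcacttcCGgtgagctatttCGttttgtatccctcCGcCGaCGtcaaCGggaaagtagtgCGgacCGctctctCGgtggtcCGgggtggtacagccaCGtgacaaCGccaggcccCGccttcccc
The CG counts were 24 for RNASEH1, 26 for RNASEH2A and 27 for DDX5, against a median of 11 over 35116 RefSeq promoter windows of that length. Runs of 4 or more G on the printed strand, the motif GGGG, numbered 1 for RNASEH1, 2 for RNASEH2A and 3 for DDX5, and 70.3% of all windows held at least 1. Runs of CCCC, the same motif on the other strand, numbered 5, 4 and 2, and 70.0% of all windows held at least 1. All 9 genes had at least 1 window in the table. The DDX5 windows not shown held 22 and 23 CG, 4 and 2 runs of G, and 0 and 1 runs of C. The contact data do not resolve such windows, since each bin spans 50 kb.

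RNASEH1 encodes the ribonuclease that digests the RNA of hybrids in the nucleus and in mitochondria. The gene lay on chromosome 2 at 3531813 to 3558333, on the minus strand, over 2 bins. Within the bin from 3500001 to 3550000, shared with ADI1, contacts were 42.3 and 42.4 CPM in the knockdown libraries, against 50.5 and 52.9 CPM in the control libraries. Within the bin from 3550001 to 3600000, which holds the gene's start, RPS7 and part of COLEC11, they were 64.1 and 64.8 CPM in the knockdown libraries, against 76.3 and 77.7 CPM in the control libraries. In both bins the groups were well apart and the libraries of each group lay close together. The log2 fold changes were -0.29 (adjusted p = 1.56e-05, SE 0.06) and -0.26 (adjusted p = 0.000117, SE 0.05). Both bins belonged to the group of highest contact level, the first close to the group's lower bound of 46.3 CPM, where the median change was -0.29 and 84.8% of bins passed as lower. Removing the trend gave -0.09 (adjusted p = 0.172) and 0.02 (adjusted p = 0.762), neither of which passed. Over 10 alternative fits the adjusted p ran from 2.79e-09 to 0.172 for the first bin and from 2.70e-08 to 0.763 for the second. The second bin also lost its call without knockdown library 1 (adjusted p = 0.0871) or 2 (adjusted p = 0.0530).

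Contacts between the start bin of RNASEH1 and the next bin, which holds COLEC11 and ALLC, kept their lower value after the trend was removed. COLEC11 encodes a collectin of innate immunity. These contacts were 16.3 and 17.4 CPM in the knockdown libraries, against 19.6 and 20.3 CPM in the control libraries, with no overlap. The log2 fold change was -0.25 (adjusted p = 0.00728, SE 0.07), or -0.22 (adjusted p = 0.0343) with the trend removed. The pair passed in 9 of 10 alternative fits (adjusted p from 6.82e-05 to 0.262) and was lost without knockdown library 1 (log2 fold change -0.20). The remaining 4 pairs of RNASEH1 had log2 fold changes from -0.32 to -0.09, so all 7 were negative, and none of these 4 passed. The largest of them joined the other bin of the gene, 100 kb away, to COLEC11 and ALLC, at 3.69 and 3.28 CPM in the knockdown libraries, against 4.35 and 4.33 CPM in the control libraries (adjusted p = 0.143). In 6 of the 7 pairs the groups did not overlap, every time with the knockdown lower, against 56.1% of all pairs without overlap in either direction. The 7 pairs share bins and are not independent.

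RNASEH2A encodes the catalytic subunit of RNase H2, which digests hybrids and removes single ribonucleotides built into DNA. The gene lay on chromosome 19 at 12806584 to 12813640, on the plus strand, inside the bin from 12800001 to 12850000 with PRDX2, THSD8, RTBDN and MAST1. Within this bin contacts were 74.0 and 72.8 CPM in the knockdown libraries, against 83.9 and 90.0 CPM in the control libraries. The groups did not overlap, and the log2 fold change was -0.24 (adjusted p = 0.000305, SE 0.05). It was 0.06 (adjusted p = 0.282) with the trend removed. The call held in 6 of 10 alternative fits (adjusted p from 3.50e-10 to 0.288). Without knockdown library 1 or 2 it was lost, with adjusted p-values of 0.0832 and 0.114. The 6 pairs between this bin and its neighbours did not pass. Those with the adjoining bins had log2 fold changes of -0.004 (SE 0.08) towards BEST2, HOOK2, JUNB and PRDX2 and 0.01 (SE 0.10) towards MAST1, DNASE2, KLF1, GCDH and SYCE2. At 150 kb the log2 fold change was -0.20 (SE 0.18) towards MAN2B1 and TNPO2. The bin of RNASEH2A belonged to the group of highest contact level, like those of RNASEH1.

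The lower contacts of the RNase H genes ran on into their surroundings. Of the listed bins up to 500 kb to either side of RNASEH1, 11 of 18 had lower within-bin contacts and 0 had higher ones, with a median log2 fold change of -0.28. Over all within-bin contacts 14.3% were lower and 7.40% higher, and 9 of these 18 bins were in the group of highest contact level, where 84.8% were lower. Around RNASEH2A, 11 of 20 were lower and 1 was higher, with a median of -0.22, and 10 of the 20 were in that group. Once the trend was removed, 1 flanking bin was lower at each gene and none was higher, against 5.12% lower and 7.89% higher over all within-bin contacts. The remaining subunits of RNase H2 are encoded by RNASEH2B and RNASEH2C. Their 3 and 8 pairs held no differing pair, and their median log2 fold changes were 0.05 and -0.05.

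**Figure D2:**
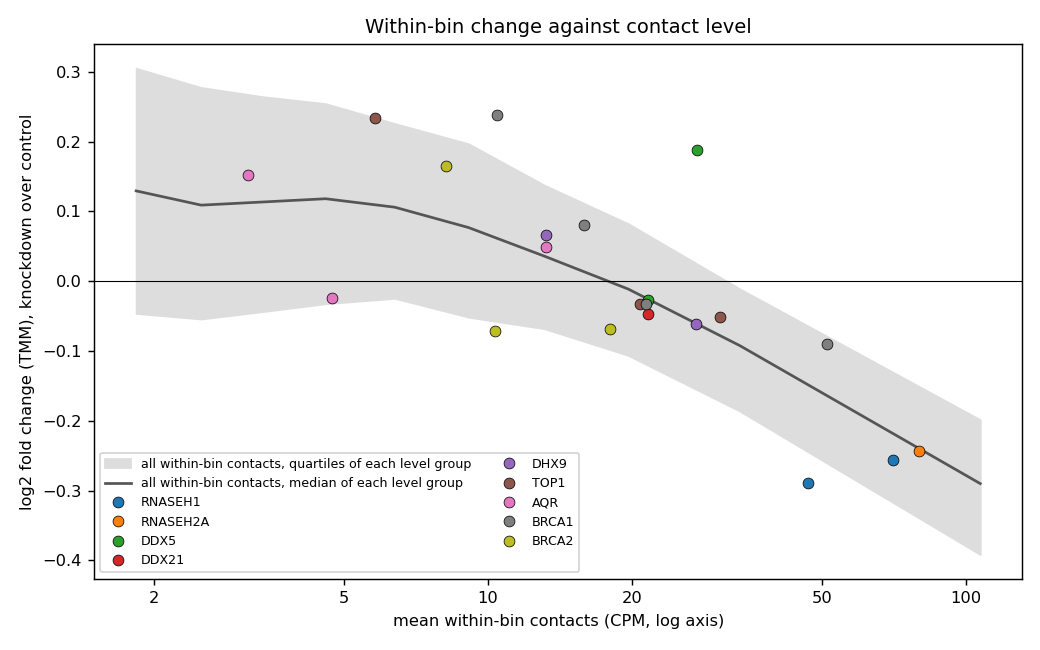
Within-bin log2 fold change (TMM, knockdown over control) against mean contact level on a log axis. Points are the 21 bins over the 9 genes, the line is the median over all within-bin contacts in each of 10 groups of level, and the shading runs between the quartiles of each group. At the high end 1 bin of RNASEH1 and that of RNASEH2A lie near the falling line and the other RNASEH1 bin just below the shading, while a DDX5 bin at 0.19 lies above the shading.

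DDX5 encodes a DEAD-box RNA helicase, also called p68, that unwinds RNA structures and hybrids. The gene is short, at 64498254 to 64506866 of chromosome 17 on the minus strand, and straddles 2 bins. Its start lay in the bin from 64500001 to 64550000, with CEP95 and SMURF2. Its 3′ end reached into the bin from 64450001 to 64500000, with POLG2 and MILR1. The gene covered that bin only from 64498254 on, so most of the bin lay outside DDX5. All 3 pairs that passed involved the bin of the 3′ end. Within that bin contacts were 28.3 and 30.2 CPM in the knockdown libraries, against 26.6 and 24.8 CPM in the control libraries. The groups did not overlap, and the log2 fold change was 0.19 (adjusted p = 0.0233, SE 0.06), or 0.28 (adjusted p = 0.00028) with the trend removed. The median change at like contact levels was -0.09. The call was lost with DESeq2 (adjusted p = 0.115) and without control library 2 (0.124), knockdown library 1 (0.104) or knockdown library 2 (0.409), over a range of 0.000248 to 0.409 in 10 alternative fits.

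The largest change among the 55 pairs was between the 3′ bin of DDX5 and the adjoining bin, whose only protein-coding gene was MILR1, which encodes an immunoglobulin-like receptor of mast cells. These contacts were 5.57 and 5.33 CPM in the knockdown libraries, against 3.97 and 3.03 CPM in the control libraries. Both knockdown libraries lay above both control libraries, and the control libraries stood further apart than the knockdown libraries. The log2 fold change was 0.64 (adjusted p = 0.000251, SE 0.14), or 0.57 (adjusted p = 0.00216) with the trend removed. This pair passed in all 10 alternative fits, with log2 fold changes from 0.46 to 0.84. The fit without the count filter, included among them, repeated the main fit. Contacts 150 kb away, with the bin of PECAM1, an adhesion molecule of platelets and endothelium, were 2.08 and 2.16 CPM in the knockdown libraries, against 1.10 and 1.63 CPM in the control libraries. Among the 4377 listed pairs at that distance they ranked at percentile 1.03 in the control and 38.8 in the knockdown. Since the list holds only the more abundant pairs, these contacts may be listed only through their knockdown counts, and their call cannot be told apart from that selection. They changed by 0.63 on the log2 scale (adjusted p = 0.0371, SE 0.22) and passed in 4 of 10 alternative fits (adjusted p from 0.00443 to 0.311). The call was lost with the trend removed (adjusted p = 0.108), with DESeq2 (0.104), without control library 1 (0.311, at a log2 fold change of 0.37) and without knockdown library 1 or 2 (0.189 and 0.219).

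Contacts within the bin of the DDX5 start did not pass, at 21.9 and 21.0 CPM in the knockdown libraries, against 23.0 and 20.7 CPM in the control libraries (log2 fold change -0.03, adjusted p = 0.835, SE 0.07). The knockdown values lay between the control values. The pair joining the gene's own bins had a log2 fold change of 0.17 (SE 0.19), and that joining the start bin to SMURF2 one of 0.39 (adjusted p = 0.183, SE 0.20). On the 3′ side of DDX5, 2 of 10 flanking bins had higher and 1 had lower within-bin contacts with TMM. After removal of the trend 8 of those 10 were higher, against 1 of 10 on the side of the gene's start and 7.89% of all within-bin contacts. Higher flanking bins were not particular to DDX5. With the trend removed they numbered 7 of 20 at TOP1, 6 of 19 at BRCA1 and 4 of 20 at DHX9. There were 3 of 20 at BRCA2, 2 of 20 at DDX21 and 1 of 17 at AQR. DDX17, which encodes the closest relative of DDX5, had lower pairs under both scalings.

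**Figure D3:**
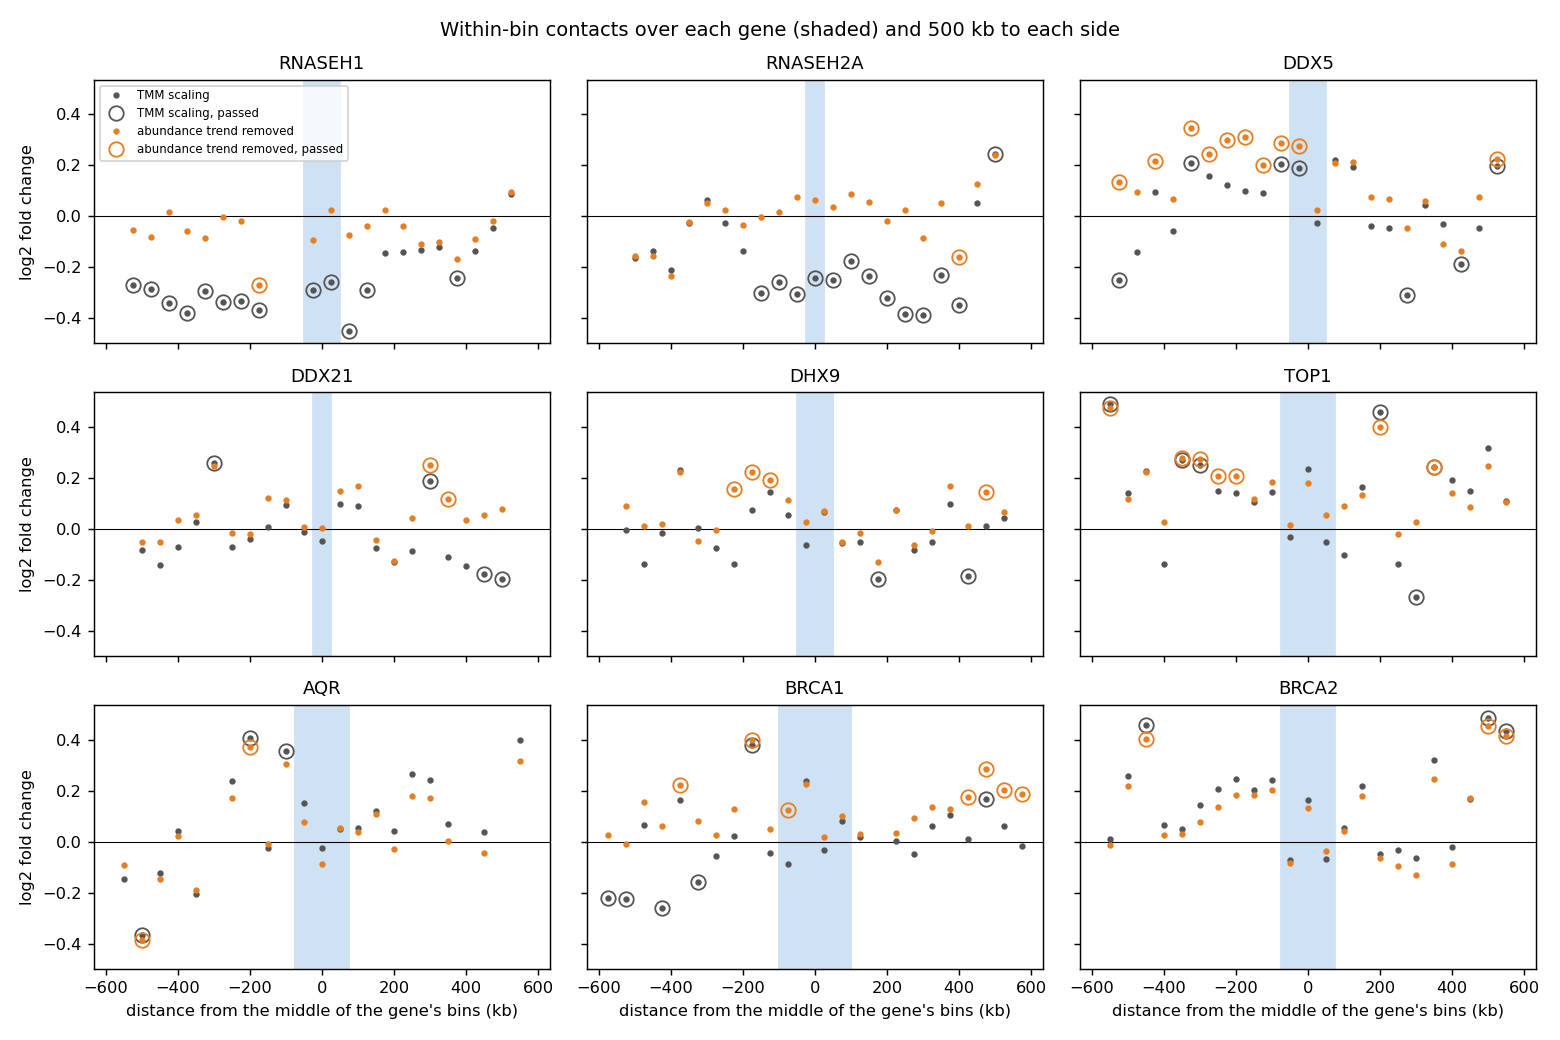
Within-bin log2 fold change (knockdown over control) of each listed bin over a gene (shaded) and up to 500 kb to either side, against distance from the middle of the gene's bins. Grey points are TMM values, orange points are values with the abundance trend removed, and rings mark values that passed. The grey points around RNASEH1 and RNASEH2A lie mostly below 0, and the orange points left of DDX5 lie above 0.

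DDX21 and DHX9 encode further helicases, the first a nucleolar DEAD-box protein of ribosome production and the second a DExH-box protein, RNA helicase A. DDX21 lay at 68956170 to 68985068 of chromosome 10, in a bin with KIFBP, where contacts were 20.9 and 21.6 CPM in the knockdown libraries, against 21.1 and 22.8 CPM in the control libraries. The groups overlapped, and the log2 fold change was -0.05 (adjusted p = 0.693, SE 0.07). Its contacts with the adjoining bin of KIFBP were 2.64 and 3.53 CPM in the knockdown libraries, against 2.17 and 2.40 CPM in the control libraries (log2 fold change 0.44, adjusted p = 0.0937, SE 0.19). Those groups did not overlap, but the knockdown libraries differed from each other by more than the lower of them differed from the control libraries. Towards DDX50, the neighbouring gene and paralog of DDX21, the log2 fold change was 0.13 (SE 0.18). The 3 pairs did not pass with the trend removed either (lowest adjusted p = 0.204).

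DHX9 lay at 182839347 to 182887982 of chromosome 1, on the plus strand. Within its start bin, shared with NPL, contacts were 27.6 and 25.7 CPM in the knockdown libraries, against 27.7 and 27.9 CPM in the control libraries (log2 fold change -0.06, adjusted p = 0.556, SE 0.06). Within its second bin, shared with SHCBP1L, they were 13.2 and 13.9 CPM in the knockdown libraries, against 13.5 and 12.4 CPM in the control libraries (log2 fold change 0.07, adjusted p = 0.649, SE 0.08). The knockdown libraries lay just below the control libraries in the start bin, and the groups overlapped in the second bin. The 4 pairs between bins ran from -0.26, towards RGS16 and RGS8 200 kb away (SE 0.19), to 0.36 towards SHCBP1L (SE 0.21). None of the 6 pairs passed, the lowest adjusted p being 0.243, or 0.263 with the trend removed.

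TOP1 encodes topoisomerase I, which relaxes DNA supercoils by cutting a single strand, and lay at 41028822 to 41124487 of chromosome 20, on the plus strand. Its start bin held no other protein-coding gene, and contacts there were 19.9 and 21.1 CPM in the knockdown libraries, against 21.3 and 20.8 CPM in the control libraries (log2 fold change -0.03, SE 0.07). The middle bin had far fewer contacts, at 6.83 and 5.77 CPM in the knockdown libraries, against 5.22 and 5.48 CPM in the control libraries (log2 fold change 0.23, adjusted p = 0.193, SE 0.12). The end bin, shared with PLCG1, had 28.8 and 31.3 CPM in the knockdown libraries, against 31.5 and 30.8 CPM in the control libraries (log2 fold change -0.05, SE 0.06). Knockdown levels were above control levels in the middle bin and overlapped them at either end. All 6 pairs between bins had positive log2 fold changes, from 0.17 to 0.43, and none passed. Over the whole list 65.2% of adjoining pairs and 42.4% of pairs farther apart were positive, and the 6 pairs share bins and are not independent. The highest joined the start and middle bins, at 2.46 and 2.59 CPM in the knockdown libraries, against 2.17 and 1.58 CPM in the control libraries (adjusted p = 0.144, SE 0.20). Contacts of the end bin with ZHX3 and LPIN3, 200 kb away, and with LPIN3 and EMILIN3, 250 kb away, had log2 fold changes of 0.37 (SE 0.21) and 0.38 (SE 0.22). At 250 kb, these last were the most distant listed contacts of any of the 9 genes. Among listed pairs at their distance, the pairs at 200 and 250 kb ranked at percentiles 19.0 and 12.9 in the control, against 53.3 and 53.4 in the knockdown. The list holds only the more abundant pairs, so at such levels it may favour those higher in the knockdown. Trend removal left the 9 pairs of TOP1 at log2 fold changes from 0.01 to 0.35, none of which passed. The flanks of TOP1 held 5 higher bins and 1 lower bin of 20, against 7.40% higher and 14.3% lower over all within-bin contacts. With the trend removed they held 7 higher and 0 lower bins, against 7.89% higher and 5.12% lower over all within-bin contacts.

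AQR encodes Aquarius, a helicase of the spliceosome that binds introns, and lay at 34851782 to 34969742 of chromosome 15, on the minus strand. It had 3 listed pairs, all within single bins, and no listed contact with a neighbouring bin. Contacts were 13.5 and 13.4 CPM in the knockdown libraries within its start bin, shared with ZNF770, against 13.7 and 12.2 CPM in the control libraries. In the middle bin they were 4.69 and 4.65 CPM in the knockdown libraries, against 4.89 and 4.61 CPM in the control libraries. The end bin had 3.50 and 3.13 CPM in the knockdown libraries, against 3.22 and 2.74 CPM in the control libraries. The start bin thus exceeded the other bins of the gene in every library, and the groups overlapped in all 3. The log2 fold changes were 0.05 (SE 0.08), -0.02 (SE 0.14) and 0.15 (SE 0.17), and the lowest adjusted p was 0.599, or 0.744 with the trend removed.

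**Figure D4:**
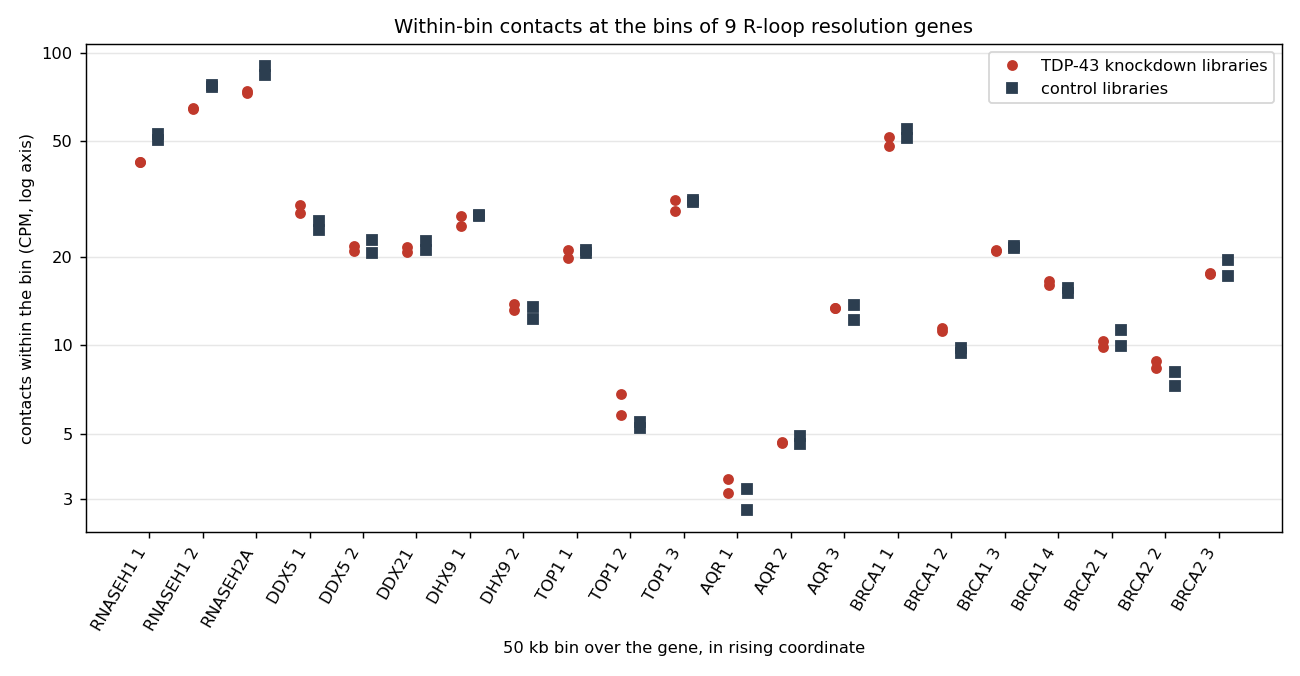
Contacts within each of the 21 bins over the 9 genes, in CPM on a log axis. Red circles are the 2 knockdown libraries, dark squares the 2 control libraries, and bins of a gene are numbered in rising coordinate. Knockdown values sit below control values at the 3 bins of RNASEH1 and RNASEH2A and above them at the first bin of DDX5.

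BRCA1 and BRCA2 encode homologous recombination proteins that protect stalled forks and act where R-loops meet replication. BRCA1 spanned 43044295 to 43170327 of chromosome 17, on the minus strand, over 4 bins. Its 3′ end reached into the bin from 43000001 to 43050000 with RPL27, IFI35, VAT1 and RND2, where contacts were 48.0 and 51.5 CPM in the knockdown libraries, against 51.0 and 55.0 CPM in the control libraries. The groups overlapped, and the log2 fold change was -0.09 (adjusted p = 0.287, SE 0.06). It turned to 0.12 (adjusted p = 0.0455) after removal of the trend, and without control library 1 it was -0.16 (adjusted p = 0.0148), so its direction depended on the scaling. Over 10 alternative fits the adjusted p ran from 0.0148 to 0.870. The bin from 43050001 to 43100000, wholly inside the gene, had 11.5 and 11.2 CPM in the knockdown libraries, against 9.42 and 9.82 CPM in the control libraries. The groups did not overlap there, but the log2 fold change of 0.24 (adjusted p = 0.0565, SE 0.09) did not pass, nor did 0.23 (adjusted p = 0.108) with the trend removed. The next bin, also wholly inside the gene, had 21.1 and 21.2 CPM in the knockdown libraries, against 21.5 and 21.8 CPM in the control libraries, lower without overlap (log2 fold change -0.03, SE 0.07). The start bin, shared with NBR1, had 16.0 and 16.6 CPM in the knockdown libraries, against 15.7 and 15.2 CPM in the control libraries (log2 fold change 0.08, SE 0.08). The 6 pairs between bins ran from -0.07 to 0.27, and none passed. Of the 10 pairs of BRCA1, 7 were higher and 1 was lower without overlap of the groups, against 56.1% of all pairs without overlap in either direction. The 10 pairs share bins and are not independent.

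BRCA2 lay at 32315077 to 32400268 of chromosome 13, on the plus strand, over 3 bins. Contacts within its start bin, shared with ZAR1L, were 10.3 and 9.89 CPM in the knockdown libraries, against 11.3 and 9.95 CPM in the control libraries (log2 fold change -0.07, SE 0.09). The middle bin, which held no other protein-coding gene, had 8.86 and 8.39 CPM in the knockdown libraries, against 8.11 and 7.28 CPM in the control libraries (log2 fold change 0.16, adjusted p = 0.296, SE 0.10). The end bin, with N4BP2L1 and N4BP2L2, had 17.5 and 17.6 CPM in the knockdown libraries, against 17.2 and 19.6 CPM in the control libraries (log2 fold change -0.07, SE 0.07). In the middle bin alone the groups did not overlap. The single contact between bins, towards N4BP2L2, had a log2 fold change of 0.31 (adjusted p = 0.369, SE 0.22). No pair of BRCA2 passed with the trend removed (lowest adjusted p = 0.473).

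Contacts between adjoining bins were more often positive than negative at these genes, as in the whole table. Of 21 such pairs, 17 had a positive log2 fold change (81.0%, against 65.2% of all adjoining pairs), with a median of 0.17 against 0.09, and 2 passed (9.52%, against 11.4%). All pairs between bins, at whatever distance, passed in 9.60%, against 3 of 34 at these genes. Of 21 within-bin contacts 4 passed (19.0%, against 21.7% of all within-bin contacts), and of the 13 pairs farther apart 1 passed (7.69%, against 7.81%). These shares that passed lay close to those of all pairs and are no result about the 9 genes. The shares of positive values lay further apart for adjoining bins, and in the other direction within bins (38.1%, against 54.1%). For pairs farther apart they were 38.5%, against 42.4%. Pairs of the same gene share bins and are not independent, and these differences in sign were not tested.

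Summed over all bins of a gene, within-bin contacts of 6 of the 9 genes passed, 4 higher and 2 lower, against 49.0% of 18701 genes (22.6% higher and 26.4% lower). This fit on gene sums had its own TMM scaling, on which DDX5 had 44.4 and 45.1 CPM in the knockdown libraries, against 40.2 and 36.5 CPM in the control libraries. RNASEH1 had 94.2 and 94.2 CPM in the knockdown libraries, against 103 and 105 CPM in the control libraries. The groups did not overlap for either gene. In this fit DDX5 had 0.22 on the log2 scale (adjusted p = 0.000251, SE 0.05), AQR 0.18 (adjusted p = 0.0285, SE 0.07), TOP1 0.11 (adjusted p = 0.0265, SE 0.04) and BRCA1 0.11 (adjusted p = 0.0327, SE 0.04). RNASEH1 had -0.14 (adjusted p = 0.0111, SE 0.04) and RNASEH2A -0.11 (adjusted p = 0.0308, SE 0.04). DHX9, BRCA2 and DDX21, at 0.11, 0.11 and 0.08, did not pass. The scaling set the zero of these values: with the library scaling of the pair table, gene sums lay 0.13 lower at the median, and only RNASEH1 (-0.27) and RNASEH2A (-0.24) passed, against 50.2% of genes (5.46% higher and 44.7% lower). The sums of TOP1, BRCA1, DHX9, BRCA2 and DDX21 then turned negative, between -0.05 and -0.02. When the trend was removed from the gene sums, DDX5 (0.21), TOP1 (0.13) and BRCA1 (0.24) passed, all higher, against 37.6% of genes (18.5% higher and 19.1% lower). The DDX5 sum stayed positive in all 9 alternative fits, from 0.09 to 0.29, and passed in 8 of them, with 0.15 (adjusted p = 0.00859) without control library 2. AQR passed in 3 of 9 (adjusted p from 0.00157 to 0.575), and its sum was 0.27 without control library 1 and 0.09 (adjusted p = 0.317) without control library 2. The sums of RNASEH1 and BRCA1 lost their call without knockdown library 1 or 2, and those of RNASEH2A, TOP1 and AQR without either of these or control library 2. Fewer of the 9 genes passed without knockdown library 1 or 2 or without control library 2, and no share over all genes is given for those fits.

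Other genes of R-loop biology were touched about as often as genes at large. Of 83 listed in 6 groups of role, 79 had a listed pair and 47 (59.5%) had a differing one, against 57.4% of all genes. They split into 35 with only lower pairs, 8 with only higher pairs and 4 with both. Among all genes 41.6% had only lower and 11.8% only higher pairs. After removal of the trend 29 of 79 (36.7%) differed, against 37.7%. Fewer than the 47 differed without knockdown library 1 or 2, and no share over all genes is given for those fits. The median over these genes of the median log2 fold change was -0.01, equal to the -0.01 of all genes. Differing pairs were found at 14 of 20 helicases, 9 of 13 mRNA export and splicing genes, 12 of 18 genes of R-loop binding and regulation and 3 of 4 topoisomerase genes. They were found at 3 of 8 ribonucleases and exonucleases, XRN2, EXOSC10 and SAMHD1, all lower, and at 6 of 16 genes of break repair and Fanconi anaemia. PALB2 and BARD1, whose proteins work with BRCA1 and BRCA2, had no differing pair under either scaling.

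**Figure D5:**
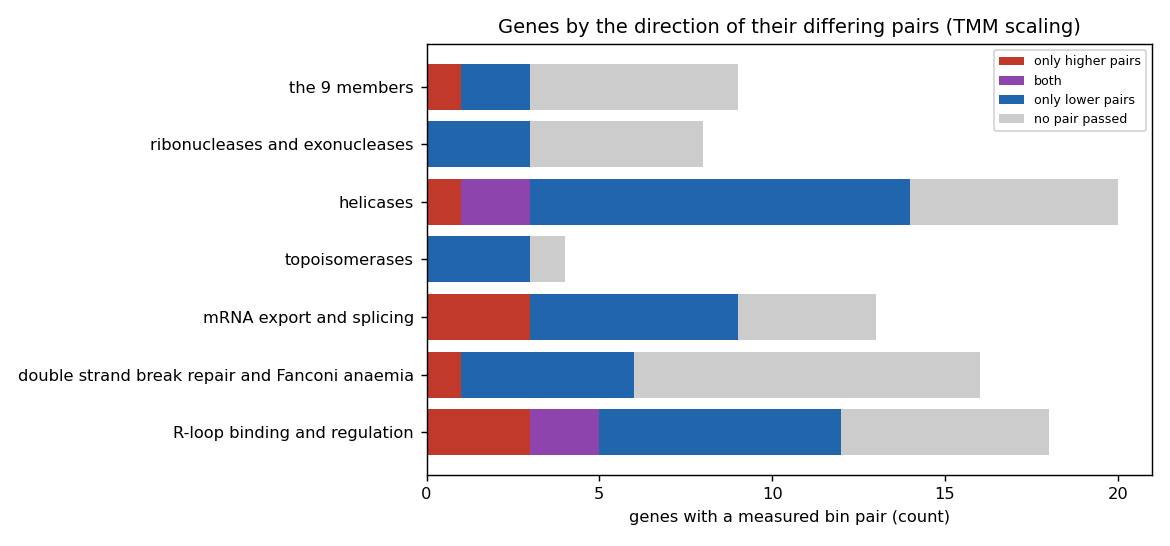
Number of genes with a measured bin pair, for the 9 genes and for 6 groups of other R-loop genes, split by the direction of their differing pairs (TMM scaling). Red is only higher, purple both, blue only lower and grey none passed. Of the 9 genes 6 are grey, and blue is the longest coloured part in each of the 6 other groups.

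Large changes among those other genes lay at ATRX and FIP1L1 on the higher side and at CPSF1, FANCA and TOP2A on the lower side. Within a bin of ATRX, a chromatin remodeller gene, contacts were 3.31 and 3.50 CPM in the knockdown libraries, against 2.01 and 2.16 CPM in the control libraries (log2 fold change 0.71, adjusted p = 0.00229, SE 0.18). Contacts of FIP1L1, a polyadenylation factor gene, had a log2 fold change of 0.69 (adjusted p = 0.0211), passed in 5 of 10 alternative fits and were lost with the trend removed (0.60, adjusted p = 0.0718) and without control library 2 or knockdown library 1 or 2. CPSF1 encodes a subunit of the cleavage and polyadenylation machinery. Contacts of its bin with that of PLEC, 450 kb away, were 1.31 and 1.37 CPM in the knockdown libraries, against 2.25 and 2.56 CPM in the control libraries (log2 fold change -0.84, adjusted p = 0.00243, SE 0.22). FANCA, a Fanconi anaemia core gene, had -0.65 towards DEF8 (adjusted p = 0.0237), lost without control library 2 (adjusted p = 0.0634) and without knockdown library 1 or 2. TOP2A, which encodes topoisomerase II alpha, had 2.96 and 2.93 CPM in the knockdown libraries, against 4.94 and 4.27 CPM in the control libraries, towards CCR7 200 kb away. It changed by -0.64 on the log2 scale (adjusted p = 0.000803, SE 0.15) and passed in all 10 alternative fits. The call of CPSF1 was lost without knockdown library 1 (adjusted p = 0.0821), and that of ATRX without knockdown library 2 (adjusted p = 0.0918). Trend removal gave log2 fold changes of 0.63 for ATRX, -0.93 for CPSF1, -0.74 for FANCA and -0.71 for TOP2A, all past the threshold.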

How the data were processed

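Contacts were measured by Micro-C in 2 knockdown and 2 control libraries. Per the submitters' processing notes, HiC-Pro and the hg38 build were used. The deposited table gives raw contact counts for pairs of 50 kb bins. Per the file headers, the authors also deposited a fold change and a mean abundance on the log2 scale, an F statistic (a score) and a p-value, raw and adjusted. The list holds only the more abundant pairs, so its totals are not library depths, and a missing pair is no zero. The smallest total count of a listed pair was 868.

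All 89239 pairs entered edgeR 4.0.16 (R 4.3.3, limma 3.58.1): TMM, filterByExpr (0 pairs removed), glmQLFit, glmQLFTest and Benjamini-Hochberg adjustment over all pairs at 0.05. The common dispersion corresponded to a coefficient of variation, between libraries, of 9.01%. Within-bin counts summed per protein-coding gene were fitted likewise over 18701 genes. Removing the trend used loess offsets per library (span 0.3, 0.5 added to counts). Both fits were tested on counts simulated with a common dispersion and no dependence of the fold change on contact level, unlike these data. The pair fit recovered 32% of log2 changes of 0.5 and 99% of those of 1, and the gene fit 98% and 100%. A pair that did not pass is therefore not shown to be unchanged. Gene bodies came from RefSeq (GRCh38.p14). CPM values are per library, and SE is of the log2 fold change.

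The 9 genes, the 83 other genes and the tests were chosen with earlier results of these data known. Among the other genes, the 3 largest increases and decreases past the threshold without overlap of the groups were named, apart from 1 not reported here, and all 9 genes were described. RNASEH2B, RNASEH2C, DDX17, XRN2, EXOSC10, SAMHD1, PALB2 and BARD1 fall outside this rule and were named after their values were seen. Alternatives were DESeq2 1.42.0, trend removal, TMM within distance classes, no filter, other thresholds, a replicate block, each library left out, the authors' deposited adjusted values, and subsets of bins. The fit without the filter repeated the main fit, since the filter removed nothing, and adds no support to the counts of alternative fits passed. The authors' deposited values lay close to those with the trend removed, so these alternatives are nearly the same. The scaling of gene sums by the pair table was added after seeing the data. Python 3.11.15, pandas 2.3.3, numpy 2.4.6 and matplotlib 3.10.9 were used.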

Additional observations from a re-analysis of the deposited data

How the results depend on the processing

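The count of 7 differing pairs over the 9 genes was 4 after trend removal, 4 by the authors' deposited table, 3 for gene start bins only, 4 for within-bin contacts only and 3 for contacts between bins only. It ran from 2 to 9 with 1 library left out. The count of 6 genes by within-bin sums was 3 with DESeq2, 3 with the trend removed, 2 with the scaling of the pair table and 1 at a threshold of 0.01, and ran from 1 to 7 with 1 library left out. The 47 other genes with a differing pair were 29 after trend removal and 29 by the authors' deposited table, and ran from 20 to 52 with 1 library left out. Signs turned for the start bin of RNASEH1 (0.0233 after trend removal, 0.0233 by the authors' deposited table), the bin of RNASEH2A (0.0632 and 0.0632) and the first bin of BRCA1 (0.124 and 0.124). They turned with the trend removed for the gene sums of RNASEH1 (0.0154) and DDX21 (-0.0169), and with the scaling of the pair table for those of DDX21 (-0.0471), DHX9 (-0.0199), TOP1 (-0.0154), BRCA1 (-0.0157) and BRCA2 (-0.0171). The cause of these moves was not tested. A fit with 1 library in a group assumes that it varies like the other group. Shares over all pairs or genes are not given for such fits. Their counts therefore cannot tell a change at these genes from a change over the whole table. With the replicate number as a block, 7 pairs, 8 genes by sums and 49 other genes passed. The differences between libraries 1 and 2 of the knockdown and of the control correlated with r = 0.02 across pairs, which shows no shared pattern by number. The labels do not say whether libraries of the same number were prepared together. This correlation cannot settle it, since counting noise in each row lowers it. With 2 libraries a group the precision is limited, and pairs near the lower end of the list, such as those of DDX21, DHX9 and TOP1 between bins, carried SE values of about 0.2 on the log2 scale.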
